A study of Mus musculus with 16 samples.

Results

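The 4 libraries described here were made from total RNA of the whole mouse striatum in control animals, before any astrocyte RNA was pulled out of the lysate. They are the input libraries of mice Y481, Y482, Y483 and Y485, chosen by their labels, and they make up 4 of the 16 libraries of the series. All 13277 listed genes were ranked by their mean level over the 4 libraries, and no comparison with another treatment or with the immunoprecipitated RNA was made. The level is CPM, the read count after scaling by effective library size, obtained by raising 2 to the deposited log2 value.

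The animals were adult mice that carried the RiboTag allele, on a B6 background, and the Aldh1l1-Cre/ERT2 transgene, from an FVB line backcrossed to C57BL/6N. RiboTag puts a haemagglutinin tag on ribosomes of cells with active Cre, and Aldh1l1 is an astrocyte gene, so the tag is meant for astrocytes. Both alleles were present in the controls too. The control mice had received an adeno-associated virus that encoded a control protein, which the labels do not name, so these libraries are from virus-injected and not from untouched striatum. Each mouse gave 1 input library, and nothing in the labels describes pooling of animals.

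The striatum is the input nucleus of the basal ganglia. Most of its neurons are GABAergic projection neurons, which answer dopamine through cAMP and fall into a direct-pathway class with D1 receptors and an indirect-pathway class with D2 receptors and enkephalin. Oligodendrocytes in the fibre bundles that cross the tissue, astrocytes, microglia, vessels and a few interneurons make up the rest. In a bulk library, fewer cells of a type and less RNA per cell cannot be told apart. A CPM value is a share of reads, and a long RNA yields more reads than a short one at the same number of molecules. Exon lengths were not used here, so the ranking orders shares of reads and not numbers of transcripts.

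Counts were low. Over the listed genes Y481 held 198462 reads, Y482 held 225349, Y483 held 375715 and Y485 held 347670. A single read was therefore worth 4.46 CPM in Y481 and 2.58 CPM in Y483. A count of 0 allowed up to 13.4 CPM in Y481, 12.6 in Y482, 7.74 in Y483 and 8.12 in Y485, taken as 3 reads. The labels name no molecular identifiers, so these floors and all counting tests below cover counting error only. The rows of the tables included 21 gene names turned into dates, such as 5-Sep, and no names of mitochondrially encoded genes.

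Library Y481 stood apart from the other 3. Its gene ranks correlated with theirs at a Spearman rho of 0.838, 0.850 and 0.842, whereas the 3 pairs without it reached 0.886, 0.882 and 0.907, each across all listed genes. Genes within a library are not independent replicates, and these values only describe the libraries. Y481 was also the shallowest library, with 2379 genes at 0 reads against 1114 to 1970 in the others, and whether depth plays a part in its position was not tested. Results that rest on it are given with and without it.

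Whether the libraries differed by more than counting error was asked gene by gene. A Pearson chi-square test set the whole reads in the 4 libraries against their effective sizes, with Benjamini-Hochberg adjustment over all genes tested. It compares these 4 libraries and no condition. Of 6802 genes with an expected count of 5 or more in each library, 640 passed an adjusted p of 0.05, or 9.41%. At an unadjusted p of 0.05, 1813 genes passed, or 26.7%. The index of dispersion, which is 1 on average when only counting error acts, had a mean of 2.49. Its median was 1.54, and the value of 1 does not hold for a median. Without Y481 the test called 69 of 7161 genes, or 0.964%, and the median index was 1.13. That test has 2 degrees of freedom in place of 3, so the medians are not on the same footing. Of the 69 genes, 66 were among the 640.

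The highest ranks went to noncoding RNA. Rn45s, the precursor of the large ribosomal RNAs, was first in every library with a mean of 58469 ± 17036 CPM (SD, n = 4). It was followed by Malat1, a nuclear long noncoding RNA, with 14334 ± 2044 CPM. The RNA subunits of 2 ribonucleoprotein enzymes came next. Rpph1, the RNA of RNase P that trims the 5′ end of transfer RNA precursors, held 10287 ± 5553 CPM, and Rmrp, the RNA of RNase MRP that takes part in ribosomal RNA processing, held 4553 ± 2075 CPM. The libraries had been depleted of ribosomal RNA, per the labels, and the Rn45s level is what was read after that step.

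Rpph1 lies on chromosome 14 from 50807447 to 50807771 and Rmrp on chromosome 4 from 43492785 to 43493059, in RefSeq's annotation of GRCm38.p6. RNA polymerase III makes both, from promoters outside the transcribed part that are known to use an octamer element. No window was available under either name, so the windows of the neighbouring genes Parp2 and Ccdc107 are shown. Each window is 300 bases of GRCm38.p6 on the plus strand, from 250 bases before to 50 after the start of the neighbouring gene, as RefSeq gives it. Capitals mark the octamer ATGCAAAT or its reverse complement ATTTGCAT, searched on both strands.
Parp2 window, chr14:50807666-50807965: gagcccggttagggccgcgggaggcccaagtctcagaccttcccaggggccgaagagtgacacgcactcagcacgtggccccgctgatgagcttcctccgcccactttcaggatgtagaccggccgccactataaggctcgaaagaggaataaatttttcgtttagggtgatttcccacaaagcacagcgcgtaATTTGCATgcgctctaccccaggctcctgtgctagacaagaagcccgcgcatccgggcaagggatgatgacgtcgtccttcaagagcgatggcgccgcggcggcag
Ccdc107 window, chr4:43493115-43493414: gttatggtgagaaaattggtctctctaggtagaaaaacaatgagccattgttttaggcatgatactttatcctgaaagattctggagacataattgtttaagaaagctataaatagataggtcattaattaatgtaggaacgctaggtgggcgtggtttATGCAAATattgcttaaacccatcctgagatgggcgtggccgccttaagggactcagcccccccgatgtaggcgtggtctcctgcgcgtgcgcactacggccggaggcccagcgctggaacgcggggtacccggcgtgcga

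The Parp2 window shares 106 bases with the Rpph1 gene, and its octamer lies 89 bases past the end coordinate of Rpph1. In the Ccdc107 window the octamer lies 215 bases past the end coordinate of Rmrp, and the window shares 0 bases with that gene. The octamer was found in 570 of 32851 such windows over the genome, or 1.74%. A match describes the letters of the window and is not evidence of binding. Whether it bears on the levels of Rpph1 or Rmrp was not tested.

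Rpph1 was read at 3669 CPM in Y481, 8943 in Y482, 11511 in Y483 and 17026 in Y485. Rmrp was read at 2265, 4111, 4548 and 7288 CPM in the same libraries. Both were lowest in Y481 and highest in Y485, and their order over the 4 libraries was the same. Rn45s followed another order, with 46301 CPM in Y481, 76027 in Y482, 69913 in Y483 and 41636 in Y485. Its 2 highest libraries were the middle ones for Rpph1. Malat1 was highest in Y481, with 17339 CPM against 13885 in Y482, 12930 in Y483 and 13181 in Y485.

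As a share of all reads over listed genes, Rn45s took 5.23% of Y481 (95% Wilson interval 5.14 to 5.33), 8.04% of Y482 (7.92 to 8.15), 7.21% of Y483 (7.13 to 7.30) and 4.42% of Y485 (4.35 to 4.49). None of these intervals overlap. Rpph1 took 0.415% of Y481 and 1.81% of Y485. The spread of these RNAs between libraries was thus far wider than counting error. Each mouse gave a single library, so mouse and library preparation cannot be told apart in it.

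Protein-coding genes took most of the reads. The 12814 genes annotated as protein coding held 89.3% ± 1.28 (SD, n = 4) of summed CPM, and Rn45s held 6.17% ± 1.67. The 302 long noncoding RNA genes together held 2.35% ± 0.443, most of it Malat1. In Y481 that class held 3.01%, above the 2.05% to 2.17% of the other libraries. RNase P RNA held 1.08% ± 0.573 and RNase MRP RNA 0.479% ± 0.213. The 63 cytosolic ribosomal protein genes, which are short and often have near-identical processed copies, held only 0.376% ± 0.0437, led by Rpl4 and Rplp1. The 57 histone genes held 0.117% ± 0.0254, and 15 small nuclear and nucleolar RNA genes held 0.0231% ± 0.00989.

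Reads were also listed on 9 miRNA genes, which held 0.0376% ± 0.0154 of summed CPM. These libraries hold fragments of long RNA, so the values describe reads over the loci and not mature miRNA. The mature sequences of the leading loci are shown to make clear which RNAs the names stand for, with the seed, bases 2 to 8, in capitals, as RefSeq gives them for GRCm38.p6. Their seeds differ.
mmu-miR-6236, chr9:110281353-110281371: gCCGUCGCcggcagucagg
mmu-miR-682, chr13:75645119-75645139: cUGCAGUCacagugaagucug
Mir6236 ranked 683 with 76.4 CPM in Y481, 274 in Y482, 359 in Y483 and 250 in Y485. Mir682 had 9.55, 88.8, 49.6 and 112 CPM in the same order, from 2 reads in Y481 to 41 in Y485. Both were lowest in Y481.

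A small number of genes held much of the tissue RNA read here. On the mean over libraries the first gene took 6.20% of summed CPM, the top 10 took 11.0%, the top 100 took 22.1% and the top 1000 took 52.8%. The 863 leading genes held 50%, and 5606 held 90%. In single libraries 792 to 912 genes held 50%. The library with the most Rn45s, Y482, needed the fewest genes and the one with the least, Y485, needed the most. The libraries between them went the other way. Y481, with 5.19% in Rn45s, needed 828 genes and Y483, with 7.15%, needed 845.

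**Figure D1:**
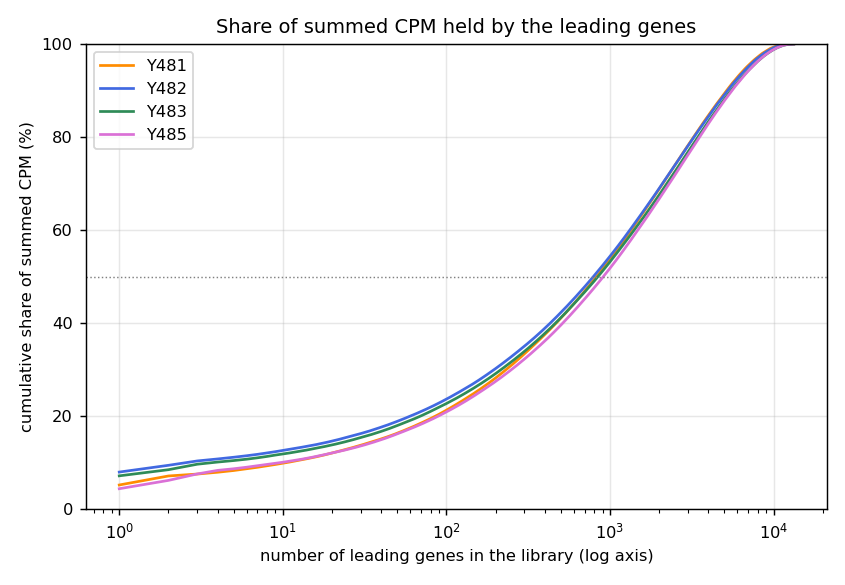
Cumulative share of summed CPM (%, linear axis from 0 to 100) against the number of leading genes in each library (log axis), with 1 line per control input library and a dotted line at 50%. The lines start at 4.38% (Y485) to 7.96% (Y482) for the first gene and cross 50% at 792 to 912 genes.

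Below the 4 noncoding RNAs at the head, 25 of the top 30 genes were protein coding. Ppp3ca, the catalytic subunit of calcineurin, ranked 5 with 2746, 3452, 3119 and 3229 CPM in Y481, Y482, Y483 and Y485. Atp2b1, a calcium pump of the plasma membrane, ranked 9 with 2969, 2641, 2129 and 2300 CPM. Ppp3ca was lowest in Y481, and Atp2b1 was highest there. Itpr1, the inositol trisphosphate receptor of the endoplasmic reticulum, ranked 13 at 2069 ± 119 CPM, and Atp2b2, another plasma membrane pump, ranked 26 at 1536 ± 53.1. Camk2a, a kinase subunit of dendritic spines, ranked 28 with 1864, 1336, 1234 and 1206 CPM, again highest in Y481.

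Projection neuron genes filled much of the rest of the top 30. Pde10a, the phosphodiesterase that breaks down cyclic nucleotides in these cells, ranked 7 at 2749 ± 146 CPM. Prkcb, a protein kinase C isoform, ranked 10 at 2309 ± 152. Arpp21, a cAMP-regulated phosphoprotein, ranked 19 at 1700 ± 107 CPM.

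The 4 genes taken as markers lay close to each other in rank. Penk, the enkephalin precursor on chromosome 4 from 4133536 to 4138815, ranked 14 with 3272 CPM in Y481, 1831 in Y482, 1561 in Y483 and 1547 in Y485. It was the gene at rank 6 in Y481, 15 in Y482, 25 in Y483 and 21 in Y485. The other 3 libraries lay close together, and Y481 was far above them.
Ppp1r1b, which encodes the dopamine-regulated phosphatase inhibitor DARPP-32, ranked 23 with 1806, 1462, 1675 and 1466 CPM in Y481, Y482, Y483 and Y485. Mbp, a myelin protein of oligodendrocytes, ranked 29 with 1110, 1462, 1520 and 1428 CPM. Snap25, a neuronal membrane fusion protein of the synapse, ranked 31 with 1574, 1315, 1218 and 1238 CPM, just outside the top 30. Ppp1r1b and Snap25 were highest in Y481 and Mbp was lowest there. All 4 markers were thus among the 31 leading genes of the tissue.

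**Figure D2:**
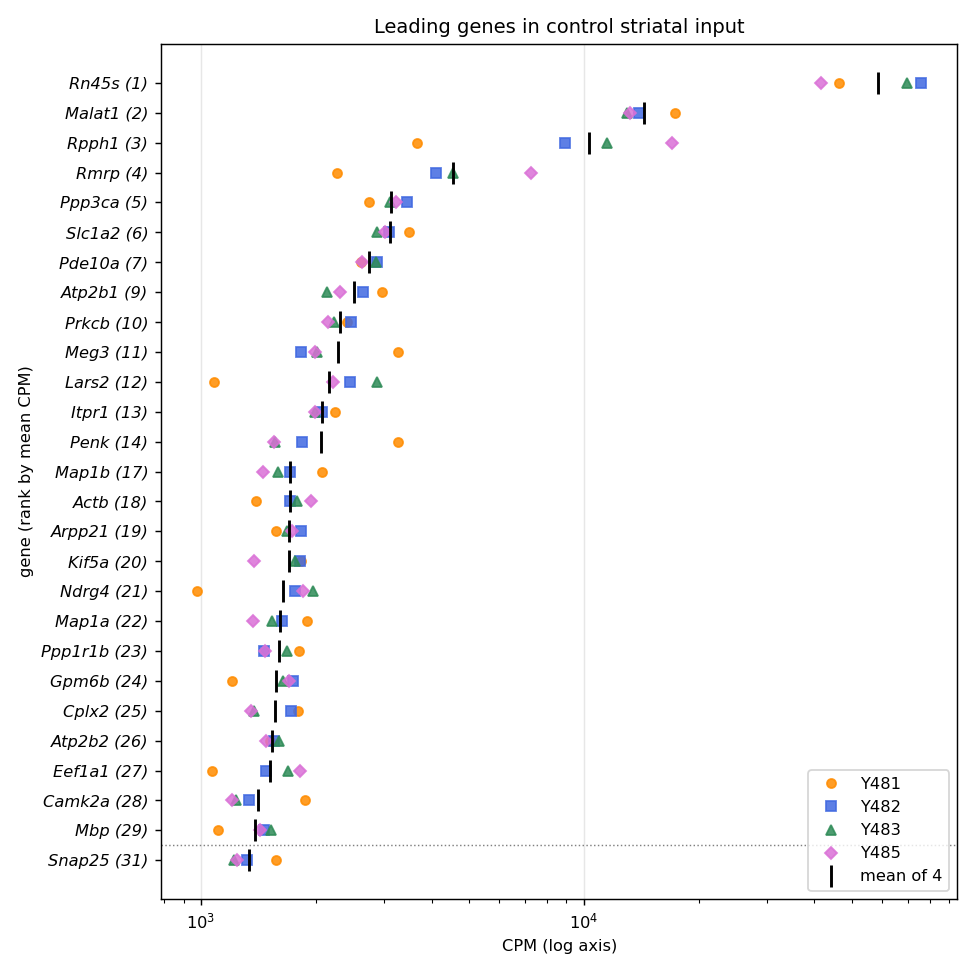
CPM (log axis) of leading genes, from rank 1 to rank 31 by mean CPM and with the rank in brackets, with 1 symbol per control input library and a black tick for the mean of 4, and a dotted line above rank 31. Y481 lies at one end of the row for Penk (3272 CPM against 1547 to 1831), Meg3 (3277 against 1827 to 2010) and Ndrg4 (977 against 1764 to 1959).

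Cell type lists were summed as shares of all CPM. A list's share depends on which genes it holds and on their lengths, so lists are not compared as numbers of cells. The 25 listed genes for striatal projection neurons held 2.27%, 2.12%, 2.05% and 2.03% in Y481, Y482, Y483 and Y485, a mean of 2.12% ± 0.108. The median of its members was 625 CPM, against 24.1 CPM over all listed genes. Of the list, 24 genes had 10 or more reads on average. After the leading genes named above came Gnal at 1224 ± 30.1 CPM, the G protein subunit that couples dopamine and adenosine receptors to adenylyl cyclase, and Adcy5 at 1192 ± 204, that cyclase.

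The direct-pathway list held 0.0958% ± 0.00726 over 8 genes, and the indirect-pathway list held 0.296% ± 0.0878 over 8 genes. Penk made up 74.1% of the indirect-pathway sum. The 2 dopamine receptors behind the names were far lower in rank than the effector enzymes. Drd1a, the D1 receptor under the files' older symbol, ranked 277 at 424 ± 63.0 CPM, with 339 in Y481, 454 in Y482 and 416 in Y483, and was highest in Y485. Drd2, the D2 receptor, ranked 1031 with 223, 185, 145 and 163 CPM. Drd2 was highest and Drd1a lowest in Y481, and neither passed the test of the spread between libraries. Adora2a, the adenosine receptor of the same indirect-pathway cells as Penk and Drd2, was lowest in Y481, with 108 CPM against 349 in Y482, 269 in Y483 and 307 in Y485 (adjusted p = 0.000176, Pearson chi-square). Penk and Adora2a, both indirect-pathway markers, therefore stood at opposite ends in that library. Neither was called when Y481 was left out. Tac1, the substance P precursor of direct-pathway cells, had 156 ± 15.0 CPM and Pdyn, the dynorphin precursor, 76.8 ± 23.7.

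Astrocyte genes held 1.16% ± 0.0436 over 33 listed genes, from 1.12% in Y482 to 1.22% in Y481. Slc1a2, the main glutamate transporter of astrocytes, ranked 6 with 3486, 3091, 2887 and 3025 CPM. Glul, glutamine synthetase, ranked 32 with 1079, 1353, 1458 and 1441 CPM. Slc1a2 was highest and Glul lowest in Y481. Sparcl1, a secreted synapse-modulating protein, had 904 ± 148 CPM, and Apoe, the lipid carrier, had 729 ± 94.7. Aldh1l1 itself, the gene whose promoter drives Cre in these mice, had 25.2 ± 10.9 CPM, from 2, 8, 10 and 11 reads.

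Oligodendrocyte genes held 0.543%, 0.642%, 0.743% and 0.640% in Y481, Y482, Y483 and Y485, over 22 listed genes. Trf, the iron carrier transferrin, had 268, 404, 566 and 426 CPM. It was lowest in Y481 and highest in Y483, as was the list. Precursor cell genes held 0.0597% ± 0.00135 over 12 genes, led by Bcas1 at 127 ± 29.9 CPM. Of the 8 tested members of that list 0 were called, where 9.41% of all tested genes were. With so few members that count says little about their steadiness.

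Microglial genes held 0.138% in Y481 against 0.0953%, 0.0919% and 0.0790% in Y482, Y483 and Y485. Ctss, a lysosomal protease, led with 206, 173, 145 and 128 CPM, and C1qb, a complement subunit, had 157, 72.0, 60.0 and 54.8 CPM. Both were highest in Y481. The list's defining genes at the low end were small counts, such as Trem2 and Aif1 with means under the floors of the shallower libraries.

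Other cell types were at the edge of what these depths can show. Endothelial genes held 0.0486% ± 0.00518, of which Bsg, which neurons and glia also express, was the main part at 198 ± 22.4 CPM. Mural and fibroblast genes held 0.0154%, led by Vtn at 33.9 ± 18.8 CPM. Interneuron genes held 0.0379% ± 0.00690, with Sst, the somatostatin precursor, at 89.1 ± 22.3 CPM and Nos1, nitric oxide synthase, at 54.2 ± 32.9 CPM. The interneuron genes Vip and Htr3a are not among the genes listed.
Ependymal genes held 0.00380%, and Ccdc153 and Meig1 had 0 reads in all 4 libraries. Choroid plexus genes held 0.0231%, nearly all of it Enpp2, which oligodendrocytes also make, at 198 ± 57.6 CPM. The defining choroid plexus gene Ttr is not among the listed genes, and neither are the haemoglobin genes of the blood list, whose 3 listed members held 0.00208%.

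Genes of cortical and other glutamatergic neurons held 0.0147%, 0.0183%, 0.0146% and 0.0292% in Y481, Y482, Y483 and Y485. Slc17a7, the vesicular glutamate transporter of cortical neurons, had 18.5, 17.4, 16.1 and 87.3 CPM, from 4, 4, 6 and 32 reads. Y485 alone was high. Its test gave an adjusted p of 3.48e-05 (Pearson chi-square with Benjamini-Hochberg adjustment), and it was still called without Y481. Neither of the other tested members was high in Y485 alone. Rorb, a nuclear receptor, had 11, 20, 12 and 19 reads and was highest in Y482, with 84.6 CPM. Lamp5, a membrane protein of neurons, had 2, 12, 22 and 24 reads. At 9.55, 51.0, 57.4 and 65.6 CPM it was low in Y481 and highest in Y485. Neither passed the test. Of the members with too few reads to test, Cux2 had 2, 1, 4 and 7 reads and was highest in Y485, at 19.6 CPM. Tbr1 had 4, 0, 1 and 4 reads and Neurod6 had 0, 0, 0 and 2. Whether cortical tissue plays a part was not tested.

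**Figure D3:**
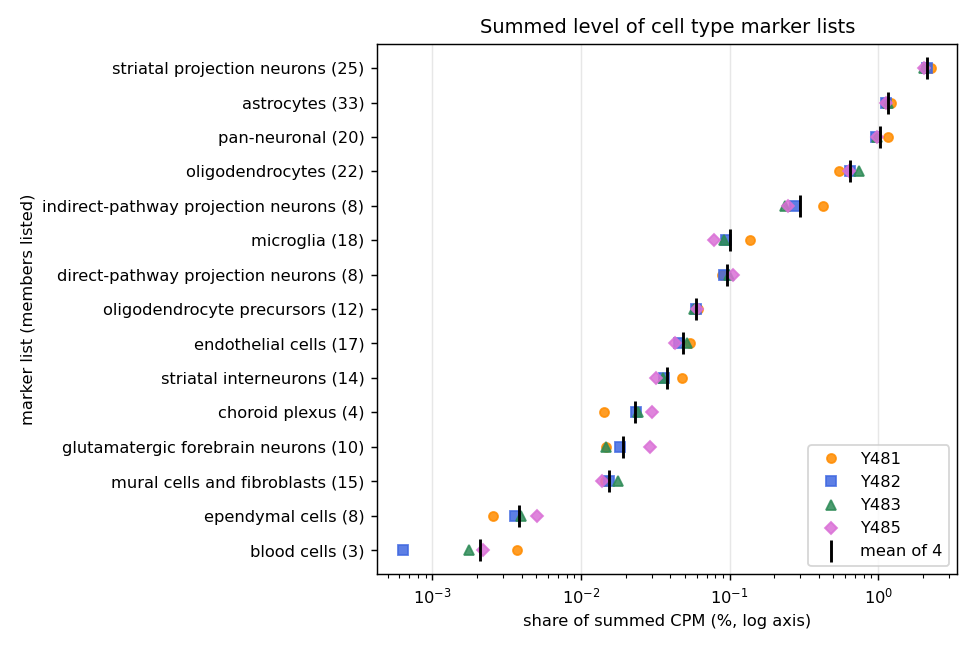
Summed CPM of each cell type list as a share of all CPM (%, log axis), with 1 symbol per control input library and a black tick for the mean of 4, and the number of listed members in brackets. Shares run from 2.12% for striatal projection neurons to 0.00208% for blood cells. Y485 lies above the others for glutamatergic forebrain neurons (0.0292%), and Y481 for indirect-pathway neurons (0.425%) and microglia (0.138%).

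Gene groups by function were larger shares than most cell type lists, and some genes stand in several of them. Postsynaptic scaffold and calcium kinase genes held 2.94% ± 0.0983, and the genes of dopamine and cAMP signalling held 2.70% ± 0.0338. The latter ran from 2.68% to 2.75% over the libraries, the narrowest relative range of the 28 lists, with the highest library 1.03 times the lowest. Cytoskeletal genes held 1.90% to 2.13%, with Map1b, Actb, Kif5a and Map1a all in the top 30. Presynaptic release genes held 1.44% ± 0.0408, led by Cplx2, a regulator of vesicle fusion, at 1559 ± 231 CPM.
Neuropeptide precursors held 0.706% in Y481 and 0.470% to 0.491% in the other libraries, and Penk accounts for the largest part of that sum. Chaperones held 0.958% ± 0.0276, glycolysis 0.439% ± 0.0385 and the sodium potassium pump 0.356% ± 0.0291. Gapdh, the glycolytic enzyme often used as a reference, had 1 read in Y481, 0 in Y482, 1 in Y483 and 0 in Y485. Gapdh has many near-identical processed copies in the mouse genome, and how reads matching several places were counted is not given in the sources used here, so its level is uncertain. The same holds for Eef1a1 at 1510 ± 324 CPM and for ribosomal protein genes. Immediate early genes held 0.199% ± 0.0315, with Egr1 at 549, 454, 331 and 315 CPM and Fos at 9.98 ± 2.22 CPM.

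Membership of the leading sets was largely shared between libraries. All 4 libraries shared 6 of their top 10, 39 of their top 50, 82 of their top 100, 363 of their top 500 and 725 of their top 1000 genes. With Y481 left out, 91 of the top 100 were shared, against 83 or 84 with another single library left out. Of the 30 leading genes, 23 were in the top 30 of every library and 30 were in the top 100 of every library. The median SD of log2 CPM was 0.21 for ranks 1 to 30 and 0.16 for ranks 31 to 200. The median difference between a gene's best and worst rank was 8.5 places among the top 30 and 112.5 among the top 500.
Neighbours in the order were not separated. Of the 30 pairs of adjacent genes from rank 1 to rank 31, the ranges over libraries overlapped in 29, and Rn45s with Malat1 was the exception. In 3 pairs every library held the same order, namely Rn45s over Malat1, Rpph1 over Rmrp and Slc1a2 over Pde10a. Rmrp, at rank 4 on the mean, was at rank 11 in Y481.

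Calls were far more frequent at the head of the ranking. Counts are highest there, so counting error is smallest and the test sees smaller differences. The spread itself was not widest there. For ranks 1 to 30 the median SD of log2 CPM was 0.21, where counting error alone gives 0.063. It was 0.16 against 0.10 for ranks 31 to 200 and 0.24 against 0.17 for ranks 201 to 1000. For ranks 1001 to 3000 it was 0.33 against 0.27. The parts of counts and of spread in the calls were not tested. Among ranks 1 to 30 the test called 24 genes, or 80%, against 28.2% of ranks 31 to 200, 18.2% of ranks 201 to 1000 and 9.60% of ranks 1001 to 3000. Without Y481, 7 of the top 30 were called. Y481 was the library farthest from the rest for 351 of the 640 called genes, or 54.8%, and for 39.7% of all genes tested.

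**Figure D4:**
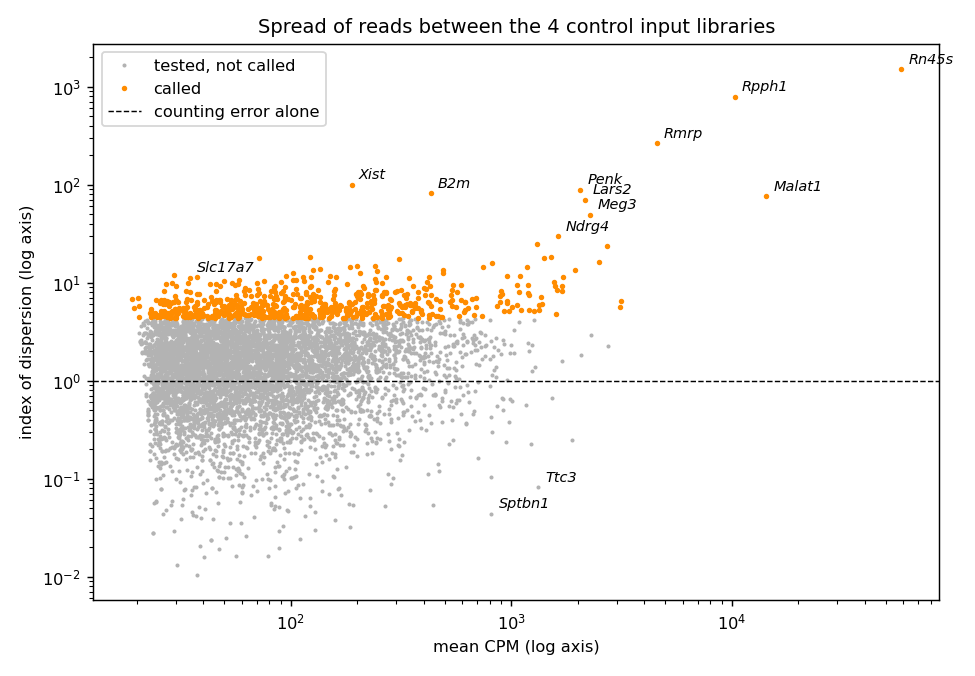
Index of dispersion (log axis) against mean CPM (log axis) for the 6802 tested genes, each a point, with the 640 called genes in orange and a dashed line at 1, the average for counting error alone. Rn45s, Rpph1 and Rmrp lie at 1500, 786 and 264, and Xist, Penk and B2m near 99.6, 88.9 and 81.4, while Ttc3 (0.0820) and Sptbn1 (0.0438) lie under the line.

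The 3 largest indices belonged to noncoding RNAs at the head of the ranking, Rn45s, Rpph1 and Rmrp, and the index of a given fold difference grows with the number of reads. It was 1500 for Rn45s, 786 for Rpph1, 264 for Rmrp and 76.1 for Malat1. The highest library exceeded the lowest 1.83-fold for Rn45s, 4.64-fold for Rpph1, 3.22-fold for Rmrp and 1.34-fold for Malat1. Lars2, the mitochondrial leucyl-tRNA synthetase whose mouse locus is known to hold ribosomal RNA-like sequence, followed at 70.1 with 1079, 2457, 2890 and 2210 CPM in Y481, Y482, Y483 and Y485. Meg3, an imprinted nuclear RNA, had 3277, 1827, 2010 and 1983 CPM and an index of 49.2. Lars2 was low and Meg3 high in Y481. All 4 tested members of the structural RNA list, Rn45s, Rpph1, Rmrp and Lars2, were still called without Y481, and Malat1 and Meg3 were not.

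Among protein-coding genes the largest index belonged to Penk, at 88.9 and a 2.12-fold range. B2m, the light chain of class I histocompatibility molecules, followed at 81.4 and a 7.57-fold range, with 928, 332, 341 and 122 CPM, from 208, 79, 132 and 45 reads. It was highest in Y481 and lowest in Y485. Ndrg4, a neuronal cytoplasmic protein, had 977, 1764, 1959 and 1842 CPM and an index of 29.7. Hpca, the calcium sensor hippocalcin, had 1850, 1096, 1136 and 1173 CPM and an index of 24.5. Both had Y481 at one end and the other 3 libraries together. Of these genes, B2m alone was still called without Y481.
Xist, the RNA that coats the inactive X chromosome, had 102, 70, 1 and 0 reads in Y481, Y482, Y483 and Y485, an index of 99.6. Ddx3y, an RNA helicase gene on the Y chromosome, had 0, 0, 27 and 29 reads, and Uty, a Y-linked demethylase gene, had 0, 0, 15 and 25. The labels used here give no sex for the mice. The Xist and Y-linked reads split the 4 libraries into Y481 with Y482 and Y483 with Y485.

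The lists can be read against the 9.41% of all tested genes, keeping in mind that their leading members have high counts. The projection neuron, dopamine and postsynaptic lists had median ranks of 143, 147 and 176. Of ranks 31 to 200, 28.2% were called, which is the nearer share for them. Of the projection neuron list the test called 7 of 25 tested genes, and of the pan-neuronal list 6 of 20. For astrocytes it called 8 of 30 and for oligodendrocytes 9 of 20. Dopamine and cAMP signalling had 8 of 29 and the postsynaptic group 10 of 34. Without Y481 these counts were 0 of 25, 0 of 20, 0 of 30, 1 of 20, 0 of 29 and 1 of 34, the single genes being Mal and Atp2b1. Over all tested genes 0.964% passed without Y481. With all 4 libraries, other lists ran from 0 of 6 for direct-pathway and for endothelial genes to 4 of 4 for structural RNAs. Neuropeptide precursors had 1 of 14, glycolysis 1 of 12 and the sodium potassium pump 3 of 6. Leaving out another single library left 417 to 579 calls over all genes.

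Among the 5 genes of the top 200 with the lowest SD of log2 CPM were Sptbn1, a brain spectrin, at 811 ± 9.94 CPM, Ttc3, a ubiquitin ligase, at 1322 ± 17.5, Scn2a1, a voltage-gated sodium channel, at 811 ± 18.5, and Gnal at 1224 ± 30.1. Their indices lie below 1, so these SDs are no larger than counting error gives. The widest range of rank in the top 500 was that of B2m, from rank 66 in Y481 to 1714 in Y485. Ctnnb1, which encodes beta-catenin, ran from rank 343 to 1241, and Psip1, a chromatin reader, from 218 to 967.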

How the data were processed

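RNA was measured in whole striatum input of 4 control mice. Per the labels' protocols, total RNA was made into stranded, ribosomal RNA-depleted Illumina libraries. The submitters' processing notes name mm10, STAR, HTSeq, edgeR and limma, without settings. The deposited values are log2 CPM with a prior count for 13277 genes per library. They were raised to linear CPM, and whole reads were recovered by subtracting the lowest value and dividing by the step of 1 read. All values were whole within 0.01 reads. Genes were ranked by mean CPM over the 4 libraries. Shares are of summed linear CPM.

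Reads were tested with a Pearson chi-square test (3 degrees of freedom, expected count of 5 or more) in scipy 1.17.1 with statsmodels 0.14.6 for the Benjamini-Hochberg adjustment, under Python 3.11.15. The script was tested on simulated data. P-values measure the spread between these 4 libraries, each from 1 mouse. Gene types and coordinates came from RefSeq for GRCm38.p6, which matched 13213 names, leaving 64 unmatched. Levels per length were not computed, since exon lengths were not used here. Named genes were the top 30, rank 31, the markers, up to 4 leading members per list, 2 per RNA class, the 12 called genes of highest dispersion, the 5 of lowest SD of log2 in the top 200 and the 5 of widest rank range in the top 500. Other genes named for low levels, namely Aldh1l1, Trem2, Aif1, Tbr1, Neurod6, Gapdh and Fos, were chosen after their values were seen. Members and lists were chosen with earlier results of these data known. The other 12 libraries were not analysed here, and some genes that the rule names are not reported here.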

Additional observations from a re-analysis of the deposited data

Results flagged for a closer look

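In 22 of 170 values examined, 1 library lay far from the other 3, with a gap to the nearest of them above the 95% critical value of Dixon's test for 4 samples. The gap was taken on log2 CPM for genes and on percentages for lists and classes. Chance flags about 1 group in 20, but that rate does not apply here, since some of the genes were named for their spread between libraries and lists hold named genes. Y481 was the distant library in 16 of them, Y482 in 2, Y485 in 3 and Y483 in 1.

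On linear CPM, a scale chosen after seeing the data, 13 of 128 genes passed in place of 16, with 10 on both scales, and Penk, Nos1 and C1qb, all high in Y481, passed on linear CPM alone. On log2 CPM, genes high in Y481 were Meg3 at 3277 CPM and Hpca at 1850. Scn2a1, at 839 CPM against 800 to 803, was flagged on a range of little size. Genes low in Y481 were Ndrg4 at 977 CPM, Gpm6b (a membrane proteolipid) at 1204, Cltc (the clathrin heavy chain) at 629, Ywhaz (a 14-3-3 protein) at 522 and Ctnnb1 at 152. The low-count genes Lamp5 at 9.55 CPM and Clic6 at 0.633 CPM, which is 0 reads, were low there too. So was the pseudogene Rpl14-ps1 at 94.2 CPM. Ywhaz and Rpl14-ps1 did not pass the test of reads (adjusted p = 0.322 and 0.228, Pearson chi-square), nor did Lamp5. In Y481 the pan-neuronal list held 1.17%, neuropeptide precursors 0.706%, the listed long noncoding RNAs 2.61%, all long noncoding RNA genes 3.01% and miRNA genes 0.0146%.

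In Y485, Kif5a, a kinesin motor, was low at 1374 CPM, Mal, a myelin proteolipid, was low at 307 CPM, and Slc17a7 was high at 87.3 CPM. In Y482, Slc2a1, the glucose transporter of vessels, was low at 25.8 CPM, from 6 reads. Its spread did not pass the test of reads (adjusted p = 0.748, Pearson chi-square). The dopamine and cAMP list was highest in Y482 at 2.75%. In Y483, Sptbn1 was at 826 CPM against 805 to 807.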

How the results depend on the processing

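The ranking, classes and list sums were recomputed with recovered reads without the prior count, with own library totals, and without each library in turn. The ranking was also recomputed with the geometric mean, the median and log2(CPM + 1). At least 28 of the top 30 genes were kept in each. Of 940 alternative values, 914 kept their result and 26 changed, 17 of them named-gene means that shifted when library totals replaced effective sizes. Without the most abundant gene, the top 10, 100 and 1000 genes held 5.42%, 17.0% and 49.7%. With Rn45s, Rpph1 and Rmrp left out of the total, a setting chosen after seeing the data, projection neuron, astrocyte and dopamine and cAMP genes held 2.30%, 1.26% and 2.93%. Over genes with 10 or more reads the median Spearman rho was 0.819. Leaving out 1 library gave 69 to 579 genes beyond counting error, with 69 without Y481 and 417 without Y485. Library totals gave 650, the stricter filter 447 of 2400 genes, no filter 627 and the likelihood-ratio statistic 821. The ranking per length was not run. No paired analysis was possible because the libraries form a single group with no contrast. Depth limits genes under about 13.4 CPM in Y481.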

Other observations

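Because B2m differed widely between the libraries, 8 further genes were looked up after seeing the data, with no claim about them as a group. Over Y481, Y482, Y483 and Y485, Gbp2, a guanylate-binding protein, had 219, 148, 85.8 and 52.1 CPM, and Gbp5, of the same family, had 71.9, 84.6, 41.9 and 16.9. Iigp1, a GTPase, had 152, 148, 85.8 and 22.3 CPM, from 34, 35, 33 and 8 reads. H2-D1, a class I histocompatibility heavy chain, had 112, 55.2, 78.0 and 19.6 CPM. These 4 genes passed the Pearson chi-square test after Benjamini-Hochberg adjustment over all genes and were lowest in Y485. Of all genes tested, 9.41% passed. Without Y481, when 0.964% passed, Iigp1 and Gbp5 were still called and Gbp2 and H2-D1 were not. H2-K1, another heavy chain, was also lowest in Y485 and did not pass (adjusted p = 0.0523, Pearson chi-square), nor did Ly6e (adjusted p = 0.613, Pearson chi-square). Ifit3 and Bst2 had too few reads to test.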
